A study of Mus musculus with 4 samples.

Results

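The 10 genes Axin2, Apc, Ctnnb1, Tcf7, Tcf7l1, Tcf7l2, Sp5, Fzd7, Rnf43 and Nkd1 of the canonical WNT pathway were followed through 4 poly(A) RNA-sequencing libraries of mouse embryonic stem cells, 2 labelled Drosha knockout and 2 wild type. They were chosen by name and role, with earlier results of these data known. Each was found once among the 43629 Ensembl genes of the count files. All 10 passed the filter on low counts, Sp5 through its knockout counts only, since its 5 and 2 wild-type counts lay below the minimum of 10. Both knockout libraries are labelled as cells of passage 7, KO1 with the proline-rich region of Drosha deleted and KO2 with the arginine and serine-rich region deleted, by paired CRISPR/Cas9 cuts. The wild types are E14 cells, an established stem cell line, taken at passage 33 for WT1 and at passage 42 for WT2 and marked in the labels as re-used samples. All 4 were cells of 129/Ola background from blastocysts, grown in serum plus LIF, the cytokine that keeps mouse stem cells undifferentiated. A mark d5 in the knockout titles is not explained. Each knockout allele is represented by 1 library. Genotype, passage and the origin of the libraries coincide here and cannot be told apart. The libraries of a group differ by label, the knockouts in their deletion and the wild types in their passage, so the p-values reflect the spread between these particular samples, allele and passage included. In bulk RNA, fewer cells of a type and less RNA per cell cannot be told apart.

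Canonical WNT signalling works by sparing beta-catenin, encoded by Ctnnb1, from breakdown. Without a WNT ligand, a complex built on the scaffolds AXIN and APC marks beta-catenin for destruction. When a ligand engages a Frizzled receptor such as FZD7 with an LRP co-receptor, the complex is blocked and beta-catenin enters the nucleus, where it meets the DNA-binding TCF proteins encoded by Tcf7, Tcf7l1 and Tcf7l2. Axin2, Rnf43 and Nkd1 are feedback genes whose products dampen the signal, and Sp5 encodes a zinc finger repressor that is a direct target in stem cells. In mouse embryonic stem cells the pathway is known for holding back TCF7L1, a repressor of the pluripotency network. DROSHA is the nuclear RNase that releases microRNA hairpins from their primary transcripts.

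Sequences are given first for features of the 10 genes that bear on microRNAs and TCF proteins, as letters only and with no binding measured. Seeds (bases 2 to 8, in capitals) are shown for 3 microRNAs, taken from RefSeq on build GRCm38.p6: miR-294-3p of a cluster known to be abundant in mouse stem cells, miR-17-5p, and let-7a-5p of the family linked to differentiation.
mmu-miR-294-3p: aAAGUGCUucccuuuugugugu
mmu-miR-17-5p: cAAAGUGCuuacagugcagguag
mmu-let-7a-5p: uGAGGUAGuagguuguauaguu
The seed AAGUGCU is shared by 5 mature mouse microRNAs of the table, AAAGUGC by 7 and GAGGUAG by 11. The longest annotated 3′ UTR of each of the 10 genes (GENCODE M21, same build) was searched for the 7 bases complementary to each seed. Tcf7 held 1 match for the miR-294 seed, Nkd1 held 1 for the miR-17 seed, and Tcf7l1 and Nkd1 each held 1 for the let-7 seed. The other 7 genes held none of these letters. Among 14147 tested genes with an annotated 3′ UTR, 16.9% held the miR-294 match, 14% the miR-17 match and 10.5% the let-7 match. The 4 matches, in capitals within their flanks and read along the mRNA, lie at chr11:52252451-52252477 (minus strand) for Tcf7, chr6:72626991-72627017 (minus strand) for Tcf7l1, and chr8:88593756-88593782 and chr8:88592517-88592543 (plus strand) for Nkd1, build mm10.
Tcf7, miR-294 match: ctataaccccAGCACTTgcgagataga
Nkd1, miR-17 match: tggtaagcatGCACTTTgcagatagtg
Tcf7l1, let-7 match: agatatctctCTACCTCttctcttcct
Nkd1, let-7 match: acaacagctgCTACCTCtcagtgttat
For TCF proteins, the 250 bases before each RefSeq gene start were searched on both strands for CTTTGAA, for CTTTGAT, for CTTTGTA and for CTTTGTT, versions of the TCF/LEF motif that share their first 5 letters. Windows were available for 9 of the 10 genes, 13 windows in all. Of these 13 windows 3 had a match, and they belong to 3 genes: Sp5, Fzd7 and Tcf7l2. At least 1 match stood in 14.8% of all 32851 windows and at least 2 in 1.43%. Sp5 was the gene with 2, one beginning 222 bases before the start on the opposite strand and one beginning 104 bases before it on the same strand. Its whole window (chr2:70474673-70474922, plus strand, GRCm38.p6) is shown because Sp5 also had the largest fitted change of the 10, with shorter stretches for Fzd7 (chr1:59482007-59482033) and for an internal start of Tcf7l2 (chr19:55895297-55895320), both on the plus strand. Capitals mark the motif.
Sp5 upstream: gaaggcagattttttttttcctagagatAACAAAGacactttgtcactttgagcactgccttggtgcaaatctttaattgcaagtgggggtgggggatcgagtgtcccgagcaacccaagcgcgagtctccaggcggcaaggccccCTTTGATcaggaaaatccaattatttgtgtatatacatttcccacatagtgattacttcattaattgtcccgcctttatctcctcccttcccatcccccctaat
Fzd7 upstream: ccacagagaaAACAAAGcgcgctattg
Tcf7l2 upstream: aaatatcaggCTTTGTTcttttga

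Library totals ran from 29264632 to 42322129 counts. Drosha, which checks the labels, stood at 158 CPM (counts scaled to library size, with TMM factors) in both knockouts and at 364 and 357 CPM in WT1 and WT2. It fell by 1.19 ± 0.11 (SE) on the log2 scale, with an edgeR adjusted p of 0.0482. After removal of GC and length trends, where 0 of 16903 genes passed, its change was -1.34 ± 0.09 with an adjusted p of 0.0901. The knockout libraries lay far closer to each other than the wild types did, with a chi-square per degree of freedom of 2.26 against 167. Change followed GC content across genes, with a Spearman rho of 0.649 between the GC content of a gene's longest transcript and its log2 fold change of knockout over wild type (16903 genes, which share the same 4 libraries). The 2 wild types differed along GC content as well, with a rho of -0.354 for WT2 over WT1, and so did the knockouts, with a rho of 0.262 for KO1 over KO2. Changes are therefore given also with smooth trends of each library with GC content and length removed. None of the 8 stem cell markers was at 0 in all libraries, and they summed to 6540 and 6604 CPM in the knockouts, beside 5566 and 6355 CPM in wild type, although 4 of the 8 were fitted above 0 and 4 below. The 12 primitive endoderm markers summed to 219 and 218 CPM in the knockouts against 440.1 and 633 CPM. Of these, 11 of the 11 tested lay lower in both knockouts than in both wild types, beside 34.8% of all genes tested. Sums of the 8 trophoblast markers were 126 and 123 against 72.2 and 55.1 CPM, of the 7 neural markers 112 and 113 against 59.0 and 68.1 CPM, and of the 13 fibroblast markers 186 and 175 against 134 and 104 CPM. Higher in both knockouts were 3 of 5 trophoblast, 4 of 5 neural and 6 of 9 fibroblast markers tested, beside 36.5% of all genes. With trends removed, the median log2 fold change went from 0.92 to 0.18 for trophoblast and from 0.88 to 0.0689 for neural markers. It went from 0.63 to 0.56 for fibroblast and from -2.53 to -2.76 for primitive endoderm markers. The 10 streak and mesoderm markers summed to 5.57 and 5.83 against 5.26 and 8.91 CPM, and Msgn1 and the fibroblast marker Twist2 had no count in any library. Every one of these sums but that of the streak list separated the groups, and their part in the values below was not tested.

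None of the 10 genes passed an adjusted p of 0.05 in the edgeR quasi-likelihood test of knockout against wild type, where 5.45% of the 17022 genes tested did (3.51% higher and 1.94% lower). The smallest edgeR adjusted p of any gene was 0.0482, so every call lies just under the threshold. With upper-quartile scaling 0 genes passed. Passing or not passing therefore separates genes poorly here. A fitted change above 0 was seen in 5 of them and below 0 in 5, and their median log2 fold change was 0.15, beside -0.0156 for all genes tested. With the trends removed the median was -0.21, beside -0.0363, and it was 0.46 without WT1 and 0.36 without WT2. The 2 groups did not overlap in 8 of the 10, 5 higher and 3 lower in the knockouts. Over all genes tested 71.2% did not overlap, 36.5% higher and 34.8% lower, so that this count is near the background. Unadjusted p was under 0.05 for 4 of the 10, beside 37.1% of all genes. DESeq2, which called 22.7% of genes (12.4% higher and 10.3% lower), called 1 of the 10, Apc.

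**Figure D1:**
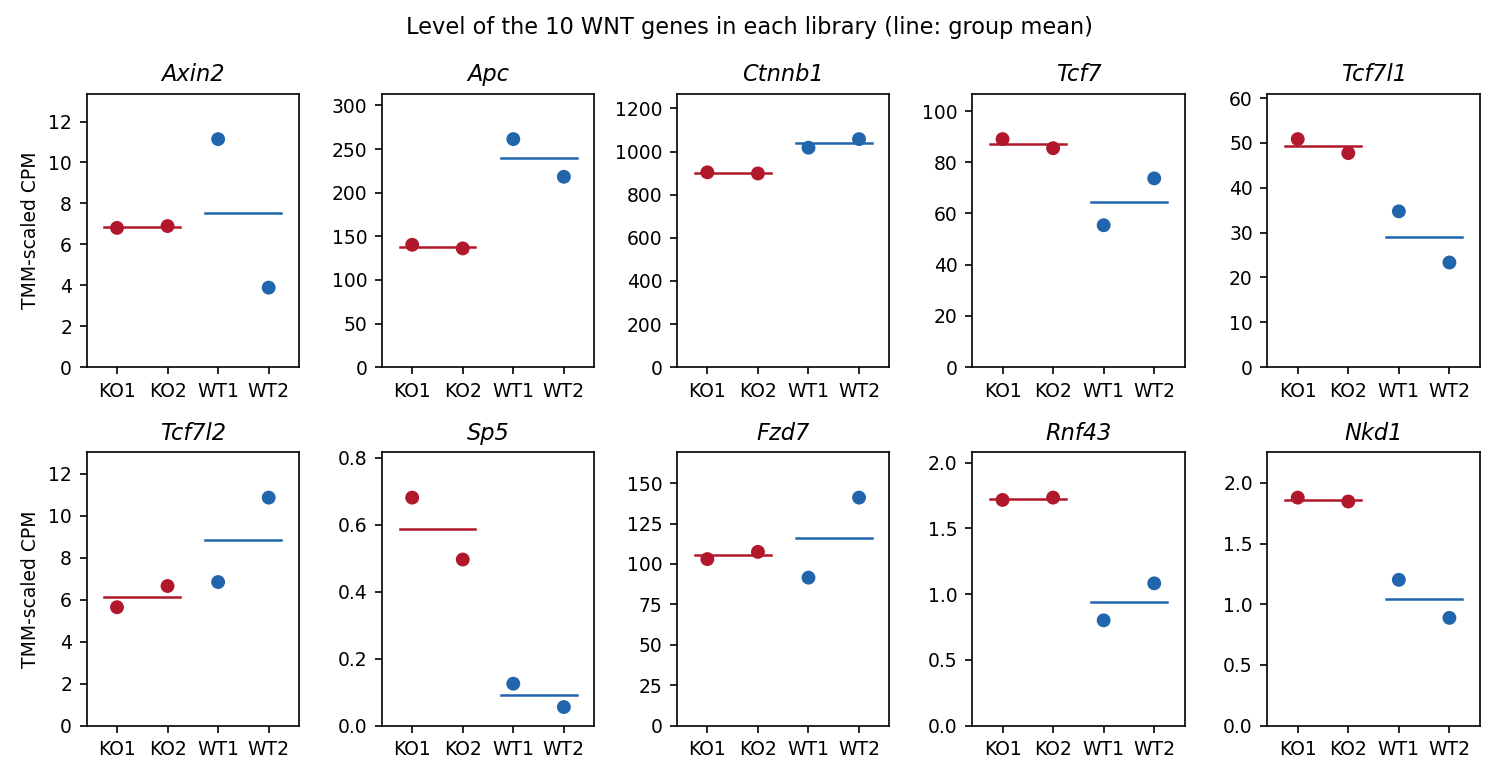
TMM-scaled CPM of each of the 10 genes (vertical axes, each from 0) in KO1 and KO2 (red) and WT1 and WT2 (blue), with a line at each group's mean. The wild-type points of Axin2 and of Fzd7 fall on either side of the knockout points, those of Axin2 at 11.1 and 3.89 CPM.

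Fzd7, the receptor gene of the 10 (ENSMUSG00000041075, chromosome 1, 59482424 to 59486955, build mm10), was measured at 103 (KO1), 108 (KO2), 91.6 (WT1) and 141 (WT2) CPM. Both knockouts lay between the wild types, so the groups overlapped. Means of 105 ± 3.17 CPM in knockout and 116 ± 35.0 CPM in wild type (SD, n = 2 each) gave a log2 fold change of -0.14 ± 0.24 (adjusted p = 0.687 in edgeR). The fitted change was -0.55 ± 0.30 after removal of GC and length trends, and it turned to 0.21 when WT2 was left out.

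In the destruction complex, Apc (ENSMUSG00000005871, chromosome 18, 34220924 to 34322552) came nearest to the threshold. APC is the large scaffold on which beta-catenin is marked for breakdown. The gene had 140.3 and 136 CPM in KO1 and KO2 against 261 and 218 CPM in WT1 and WT2, with both knockouts below both wild types. The means of 138 ± 2.95 and 240 ± 30.5 CPM (SD, n = 2 each) differed by a log2 fold change of -0.80 ± 0.14 (adjusted p = 0.0539 in edgeR). With DESeq2 the change was -0.82 with an adjusted p of 0.00637, and after removal of GC and length trends it was -0.31 ± 0.11. Transcripts of Apc have the lowest GC content of the 10 genes at 44.3%. A processed pseudogene, Apc-ps1, had 4 to 17 counts per library, beside 4331 to 10443 for Apc.

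Axin2 (ENSMUSG00000000142, chromosome 11, 108920349 to 108950783) encodes the AXIN that is itself induced by the pathway and is the usual readout of its activity. It stood at 6.80 (KO1), 6.89 (KO2), 11.1 (WT1) and 3.89 (WT2) CPM. The log2 ratio of KO1 to KO2 was -0.0189, while WT2 lay below WT1 by a log2 ratio of -1.51, the widest difference between wild types among the 10 genes. The fitted log2 fold change of -0.14 ± 0.54 did not pass (adjusted p = 0.870 in edgeR, and -0.53 ± 0.45 with trends removed). Its sign differed with the wild-type library used and was 0.82 without WT1 and -0.69 without WT2.

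Ctnnb1 (ENSMUSG00000006932, chromosome 9, 120929216 to 120960507), which encodes beta-catenin, the effector of the pathway, varied least. Its levels were 903 and 898 CPM in the knockouts, beside 1018 and 1057 CPM in wild type, and the groups did not overlap. The log2 fold change was -0.20 ± 0.11 (901 ± 3.69 against 1038 ± 28.1 CPM, SD, n = 2 each, adjusted p = 0.260 in edgeR). Of the 10 changes it was the one that moved least after removal of GC and length trends, to -0.20 ± 0.09. The protein, whose stability the pathway controls, was not measured.

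**Figure D2:**
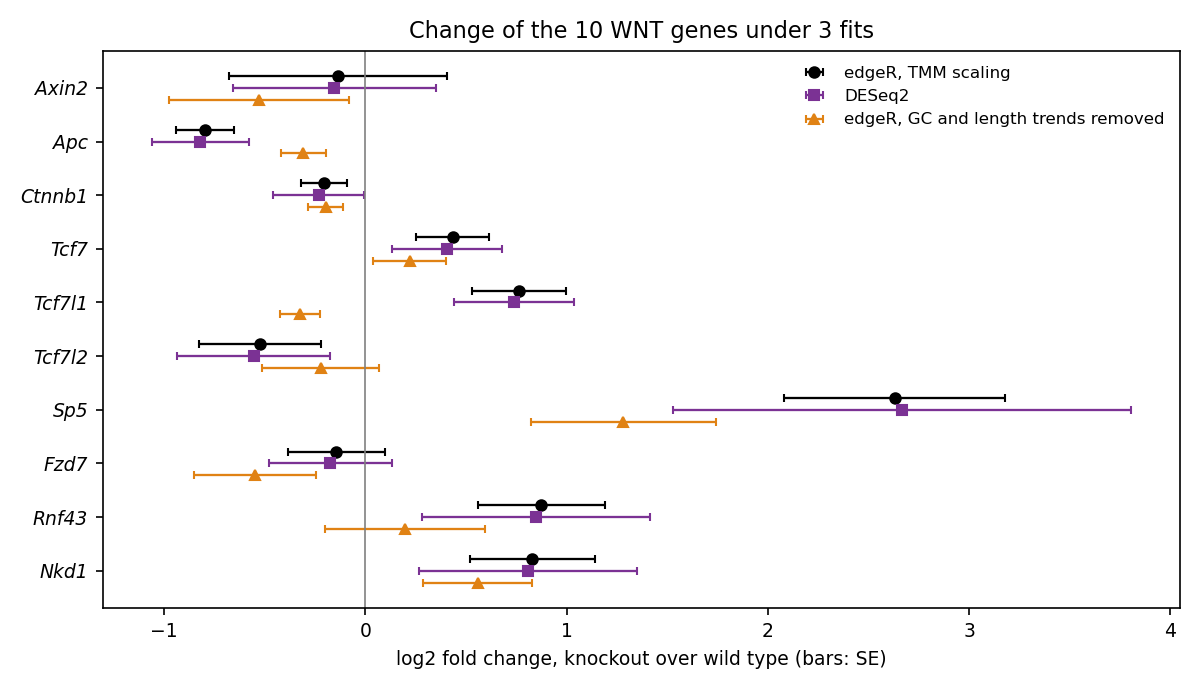
Log2 fold change of knockout over wild type with its SE (horizontal axis) for the 10 genes under edgeR with TMM scaling (black circles), DESeq2 (purple squares) and edgeR after removal of GC and length trends (orange triangles). Tcf7l1 stands at 0.76 in the first fit and at -0.32 in the third, and Sp5 moves from 2.63 to 1.28.

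The 3 TCF genes did not share a direction. Tcf7 (ENSMUSG00000000782, chromosome 11, 52252371 to 52283014), which encodes TCF1, mostly an activator, had 89.0 and 85.5 CPM in the knockouts, beside 55.4 and 73.7 CPM in wild type. Both knockouts lay above both wild types, and the log2 fold change of 0.43 ± 0.18 did not pass (adjusted p = 0.165 in edgeR, and 0.22 ± 0.18 with trends removed). The lincRNA Gm26551 overlaps Tcf7 on the same strand and had 0 to 9 counts, beside 2213 to 3794 for Tcf7.

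Tcf7l1 (ENSMUSG00000055799, chromosome 6, 72626378 to 72789254) encodes the repressor formerly called TCF3. KO1 and KO2 stood at 50.9 and 47.7 CPM, WT1 and WT2 at 34.8 and 23.3 CPM, again without overlap. The log2 fold change was 0.76 ± 0.23 (49.3 ± 2.21 against 29.0 ± 8.07 CPM, SD, n = 2 each, adjusted p = 0.1003 in edgeR). This direction turned to -0.32 ± 0.10 after removal of GC and length trends, and Tcf7l1 has the second highest GC content of the 10 genes, 59.3%. Gm37969, an annotated transcript of unsettled type inside Tcf7l1 on the same strand, had 19 to 53 counts, beside 841 to 2119.

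Tcf7l2 (ENSMUSG00000024985, chromosome 19, 55741820 to 55933654), which encodes TCF4 and is the main TCF of intestinal epithelium, was the rarest of the 3. It had 5.64 and 6.65 CPM in the knockouts against 6.83 and 10.9 CPM in the wild types. KO2 and WT1 were almost level, and the log2 fold change of -0.52 ± 0.30 did not pass (adjusted p = 0.269 in edgeR, and -0.22 ± 0.29 with trends removed).

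Levels per length show which TCF predominated. In FPKM (CPM per kilobase of annotated exon), Tcf7 made up 70.6% and 70.7% of the summed level of Tcf7, Tcf7l1, Tcf7l2 and Lef1 in KO1 and KO2, and 68.1% and 78.6% in WT1 and WT2. Tcf7l1 made up 27.0% and 26.4% in the knockouts, between 28.6% in WT1 and 16.6% in WT2. Tcf7l2 took 1.34% and 1.65% against 2.51% and 3.46%, and Lef1, the fourth gene of the family, 1.14% and 1.19% against 0.836% and 1.33%. The ratio of Tcf7 to Tcf7l1 was 2.62 and 2.68 in the knockouts, inside the range of 2.38 to 4.72 set by the wild types. The mixture of TCF transcripts thus overlapped between the groups for Tcf7, Tcf7l1 and Lef1, while the share of Tcf7l2 was lower in both knockouts than in both wild types.

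Sp5, Rnf43 and Nkd1, the remaining target and feedback genes, were the rarest of the 10 and stood above wild type in both knockouts. Sp5 (ENSMUSG00000075304, chromosome 2, 70474923 to 70477729) had 21 counts in KO1 and 22 in KO2, against 5 in WT1 and 2 in WT2, or 0.680 and 0.496 CPM against 0.125 and 0.0555 CPM. Summed over the libraries of a group, the ratio of knockout to wild type was 6.20 with a 95% exact binomial interval of 2.77 to 16.3, which covers counting error only. Only the knockout counts carried Sp5 past the filter, so its inclusion was not independent of this difference. The fitted log2 fold change of 2.63 ± 0.55 did not pass (adjusted p = 0.0605 in edgeR), and it was 1.28 ± 0.46 after removal of GC and length trends. Transcripts of Sp5 have the highest GC content of the 10 genes, 62.0%. The 2 motif matches printed above lie before its start, and any bearing of them on its level was not tested.

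Rnf43 (ENSMUSG00000034177, chromosome 11, 87662722 to 87735539) encodes a ubiquitin ligase that removes Frizzled receptors from the cell surface. It had 1.72 and 1.73 CPM in the knockouts, beside 0.801 and 1.08 CPM in wild type, a log2 fold change of 0.87 ± 0.32 that did not pass (adjusted p = 0.131 in edgeR). The change was 0.20 ± 0.40 with trends removed. Nkd1 (ENSMUSG00000031661, chromosome 8, 88521354 to 88594884) encodes Naked cuticle, an inhibitor that binds Dishevelled. It had 1.88 and 1.85 CPM against 1.202 and 0.888 CPM, with a log2 fold change of 0.83 ± 0.31 (adjusted p = 0.138 in edgeR, and 0.56 ± 0.27 with trends removed). At 32 to 82 counts per library, both genes were measured with wider counting error than the core components. Among the 4 target and feedback genes, Axin2 lay between its wild types and the other 3 lay above theirs. None of the 4 passed, and 36.5% of all genes tested lay higher in both knockouts.

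Between genes, levels per length spanned a wide range and kept nearly the same order in every library. Ctnnb1 led with 173 to 204 FPKM, followed by Tcf7 (21.1 to 33.9) and Fzd7 (20.2 to 31.1), whose ranges overlapped and whose order changed in WT2. Apc and Tcf7l1 came next, in an order that differed between the groups. Tcf7l1 lay above Apc in the knockouts (13.0 and 12.2 against 8.71 and 8.45 FPKM) and below it in the wild types (8.86 and 5.95 against 16.2 and 13.5 FPKM). These levels are not corrected for GC content. With GC and length trends removed, the log2 fold changes of Tcf7l1 and Apc were nearly equal, at -0.32 and -0.31. Axin2 (0.706 to 2.02 FPKM) and Tcf7l2 (0.642 to 1.24 FPKM) overlapped, and Nkd1 (0.195 to 0.412), Rnf43 (0.122 to 0.265) and Sp5 (0.0264 to 0.324) were lowest, with overlapping ranges.

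The spread within groups was unequal for all 10 genes, each of which differed more between the wild types than between the knockouts. The median size of the log2 ratio was 0.49 between WT2 and WT1 and 0.05 between KO1 and KO2, beside 0.45 and 0.07 over all genes tested. WT2 lay above WT1 for Ctnnb1, Tcf7, Tcf7l2, Fzd7 and Rnf43 and below it for the other 5. For Axin2, Tcf7l2 and Fzd7 the log2 ratio between the wild types was larger in size than the fitted change between the groups. Calls differed when a wild-type library was left out. Without WT1 all 10 genes passed in edgeR (6 higher, 4 lower) and without WT2 9 passed (6 higher, 3 lower). In those fits the spread comes from the knockout pair alone, and 13659 and 12089 genes passed in all.

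**Figure D3:**
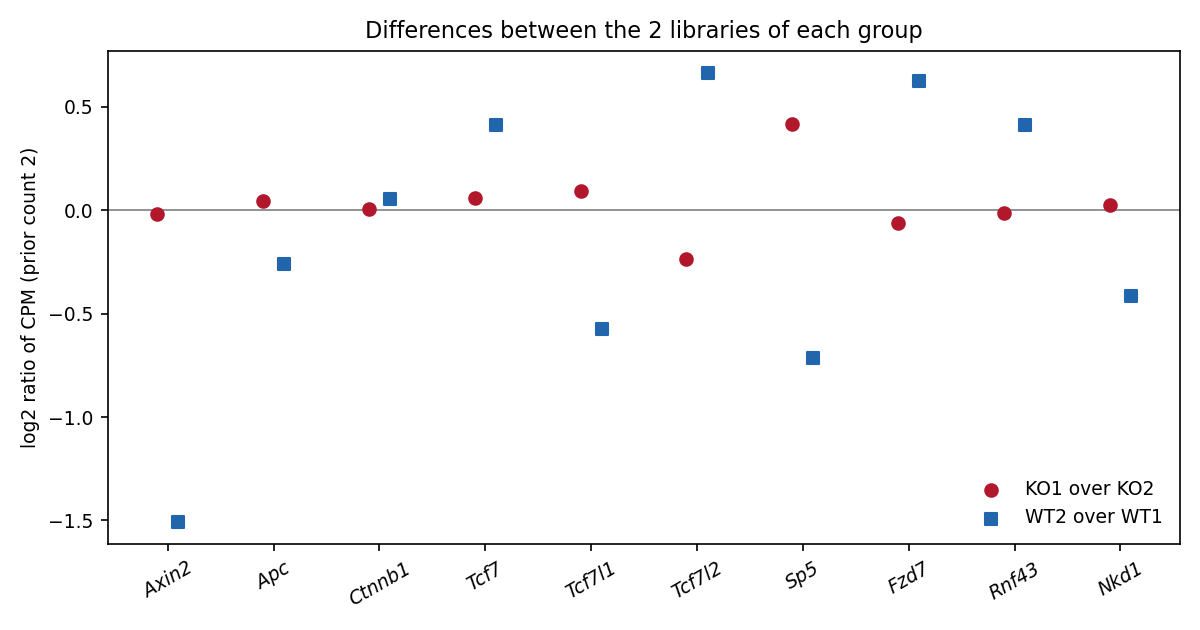
Log2 ratio of CPM with a prior count of 2 (vertical axis) between the 2 libraries of a group for each of the 10 genes, KO1 over KO2 as red circles and WT2 over WT1 as blue squares. The blue squares reach -1.51 for Axin2, and each of them lies farther from 0 than the red circle beside it.

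The wider pathway was described with 10 lists by role, 108 different genes that include the 10 above, of which 88 passed the filter. In edgeR 4 rose and 2 fell, against the 5.45% called among all genes. The median log2 fold change of the 88 was 0.39, and it was -0.09 after removal of GC and length trends, where none passed. The median was 0.60 without WT1, and 80 wider genes passed without WT1 and 64 without WT2. None of the 6 passed without KO1 or without KO2 either, although their direction stayed.

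Receptors held the largest change. Fzd2 (ENSMUSG00000050288, chromosome 11, 102604396 to 102608058), a Frizzled receptor gene, had 6.54 and 6.56 CPM in the knockouts, beside 0.751 and 0.833 CPM in wild type. It rose by 3.04 ± 0.25 on the log2 scale, an 8.25-fold difference (adjusted p = 0.0482 in edgeR, and 2.29 ± 0.28 with trends removed). Without KO1 or without KO2 its change was 3.05, with an adjusted p of 0.184 or 0.117. Lrp6 (ENSMUSG00000030201, chromosome 6, 134446476 to 134566965), the co-receptor that recruits AXIN, had 67.9 and 69.3 CPM against 147 and 128 CPM. It fell by 1.00 ± 0.13 on the log2 scale (adjusted p = 0.0482 in edgeR, and -0.60 ± 0.10 with trends removed, adjusted p = 0.0972). The other 14 receptor genes, Fzd7 among them, did not pass in edgeR. DESeq2 called 7 of the 16, 4 higher and 3 lower, beside 22.7% of all genes (12.4% higher and 10.3% lower). The median over all 16 was 0.52, which was -0.06 with trends removed and 0.34 without WT2.

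Among the 10 Frizzled genes, Fzd7 and Fzd5 gave most of the level per length in every library. Fzd7 made up 45.6% and 46.6% of the summed FPKM in the knockouts and 39.9% and 40.5% in the wild types. Fzd5, which encodes another Frizzled and was chosen here after its values were seen, made up 28.3% and 27.6% against 45.4% and 48.1%. Fzd5 itself had 97.6 and 97.2 CPM against 159 and 256 CPM, with a log2 fold change of -1.09 ± 0.26 that did not pass (adjusted p = 0.0711 in edgeR, and -1.33 ± 0.33 with trends removed). Fzd2, despite its rise, reached 3.58% and 3.52% of the Frizzled level in the knockouts, from 0.405% and 0.296%. Fzd7 was thus the most abundant Frizzled transcript in the knockouts, where Fzd5 had been in the wild types.

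**Figure D4:**
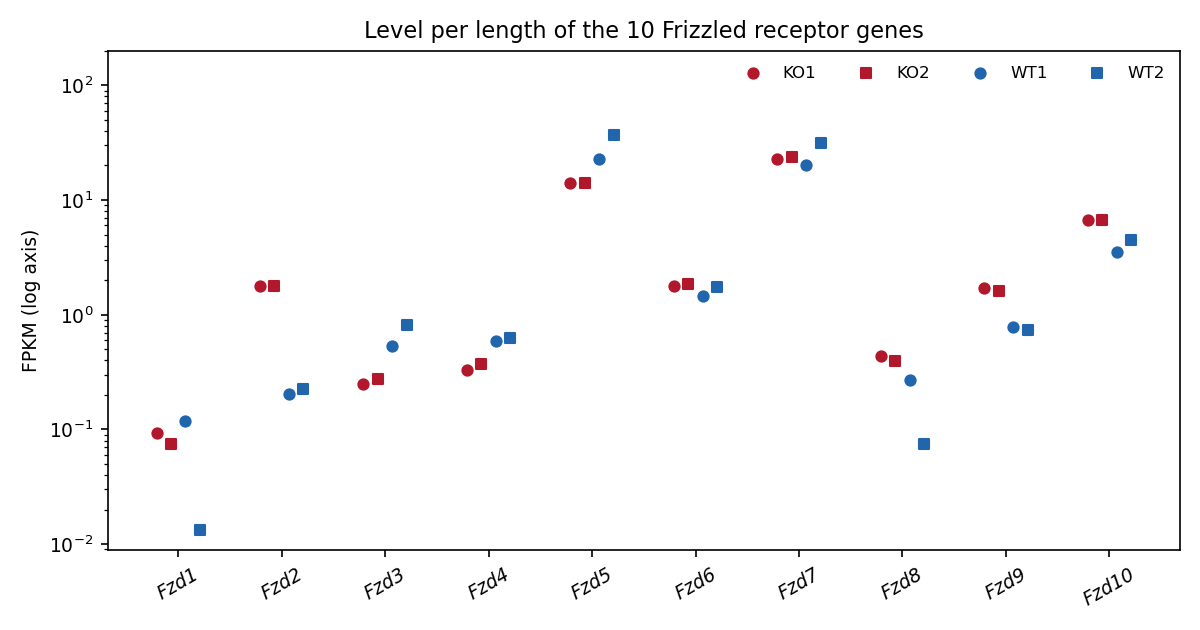
FPKM (log axis) of the 10 Frizzled receptor genes in the 4 libraries, knockouts in red and wild types in blue. Fzd2 stands at 1.79 FPKM in both knockouts and at 0.205 and 0.227 FPKM in the wild types, while the points of Fzd7 overlap.

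In the destruction complex list 8 of 12 tested genes were fitted below 0, with a median log2 fold change of -0.55 (-0.37 with trends removed). Over all genes 8641 of 17022 were fitted below 0. Amer1 (ENSMUSG00000050332, chromosome X, 95420318 to 95444872), which encodes a membrane-bound partner of APC, was the member that passed. It had 18.6 and 19.9 CPM against 46.1 and 43.8 CPM and fell by 1.22 ± 0.14 on the log2 scale (adjusted p = 0.0482 in edgeR, and -0.89 ± 0.12 with trends removed). Of the other 11, Apc among them, none passed. DESeq2 called 4 genes of the list lower, beside 10.3% of all genes.

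Of the Dishevelled and cytoplasmic regulators 7 of 8 were fitted above 0, beside 8381 of the 17022 genes tested. Their median was 0.90, which was 0.08 with trends removed. Dvl2 (ENSMUSG00000020888, chromosome 11, 70000595 to 70012301), 1 of 3 Dishevelled genes that relay the signal from the receptor, had 79.9 and 76.6 CPM against 38.6 and 31.9 CPM. It rose by 1.149 ± 0.15 on the log2 scale (adjusted p = 0.0482 in edgeR, and 0.35 ± 0.12 with trends removed). Dact3 (ENSMUSG00000078794, chromosome 7, 16875317 to 16887462), which encodes a Dishevelled antagonist, had 20.3 and 19.4 CPM against 6.56 and 8.11 CPM. It rose by 1.44 ± 0.19 on the log2 scale with the same adjusted p, but the direction turned to -0.45 ± 0.36 with trends removed, and its GC content is 66.4%.

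Of the 19 ligand genes 10 passed the filter and none passed the test (edgeR; 1 had an unadjusted p under 0.05, and DESeq2 called none). All 10 were fitted above 0, with a median of 0.48 that turned to -0.31 with trends removed, where 4 were above 0. Over all genes tested 8381 of 17022 were above 0. This direction depended on the filter. With no filter 13 of 18 ligand genes were above 0 with a median of 0.31, beside 13662 of 26409 genes. Without WT2 6 of 12 ligand genes were above 0 with a median of 0.21, and without WT1 the median was 2.78. Wnt5b, a ligand mostly of non-canonical signalling, had the smallest p, at 1.26 and 1.28 CPM against 0.776 and 0.555 CPM (log2 fold change 0.93 ± 0.34, adjusted p = 0.130 in edgeR, and -0.24 ± 0.28 with trends removed). Wnt7b, named after its values were seen, was the most abundant ligand and set the wild types apart, with 17.2, 15.3 and 16.4 CPM in KO1, KO2 and WT1 but 0.860 CPM in WT2. Of the 2 genes for ligand secretion, Porcn, which encodes the acyltransferase that attaches lipid to WNT proteins, had 39.6 and 38.3 CPM against 23.7 and 10.6 CPM (log2 fold change 1.18 ± 0.42, adjusted p = 0.126 in edgeR, and 0.67 ± 0.33 with trends removed). DESeq2 gave Porcn an adjusted p of 0.0224.

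Secreted antagonists numbered 9 above the filter of 15, and none passed in edgeR (4 had an unadjusted p under 0.05, and DESeq2 called 3). Of all genes tested, 37.1% had an unadjusted p under 0.05 in edgeR, and DESeq2 called 22.7%. Sfrp2, which encodes a soluble Frizzled-like inhibitor, came closest at 26.7 and 25.01 CPM against 6.23 and 9.99 CPM. Its log2 fold change was 1.67 ± 0.28 (adjusted p = 0.0508 in edgeR, and 1.37 ± 0.30 with trends removed). In the R-spondin axis, which tunes receptor turnover and includes Rnf43, 6 of 9 genes passed the filter and none the test (2 at an unadjusted p under 0.05, DESeq2 none). Rspo4, a secreted R-spondin, had the smallest p at 0.616 and 1.01 CPM against 0.3004 and 0.194 CPM (log2 fold change 1.71 ± 0.47, adjusted p = 0.0865 in edgeR, and 1.096 ± 0.44 with trends removed).

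Among beta-catenin and its nuclear partners none of 15 passed in edgeR (5 at an unadjusted p under 0.05, DESeq2 called 1). Over all genes these shares were 37.1% and 22.7%. Ctnnbip1, which encodes an inhibitor of the contact between beta-catenin and TCF, had the smallest p at 26.05 and 24.7 CPM against 17.98 and 16.7 CPM (log2 fold change 0.55 ± 0.14, adjusted p = 0.0805 in edgeR, and 0.0188 ± 0.12 with trends removed). Of 19 feedback and target genes 16 passed the filter and none passed the test (5 at an unadjusted p under 0.05, DESeq2 called 3, again beside 37.1% and 22.7%). Fitted above 0 were 11 of the 16, beside 8381 of the 17022 genes tested. The cyclin gene Ccnd1 had the smallest p, at 178 and 187 CPM against 122 and 111 CPM (log2 fold change 0.65 ± 0.12, adjusted p = 0.0552 in edgeR, and 0.59 ± 0.10 with trends removed). The median of these 16 was 0.61, and 0.21 with trends removed. Of the 16, 10 lay higher in both knockouts and 2 lower, beside 36.5% and 34.8% of all genes tested. Dkk1, named after its values were seen, was 1 of the 2 lower (log2 fold change -2.45 ± 0.67, adjusted p = 0.0850 in edgeR, and -2.10 ± 0.59 with trends removed).

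Of 4 pluripotency genes reported to be repressed by TCF7L1, Klf2 rose in edgeR and Esrrb, Nanog and Tfcp2l1 did not pass. DESeq2 also called Tfcp2l1 (log2 fold change -0.98, adjusted p = 0.00227). Klf2 (ENSMUSG00000055148, chromosome 8, 72319033 to 72321656), a transcription factor gene of the naive state, had 211 and 192 CPM against 71.3 and 80.2 CPM, a log2 fold change of 1.41 ± 0.14 (adjusted p = 0.0482 in edgeR) that turned to -0.0143 ± 0.27 with trends removed. The 4 genes had a median of -0.21, with 2 fitted above 0 and 2 below. With trends removed none was above 0 and the median was -0.30, Esrrb turning from 0.0332 to -0.46.

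**Figure D5:**
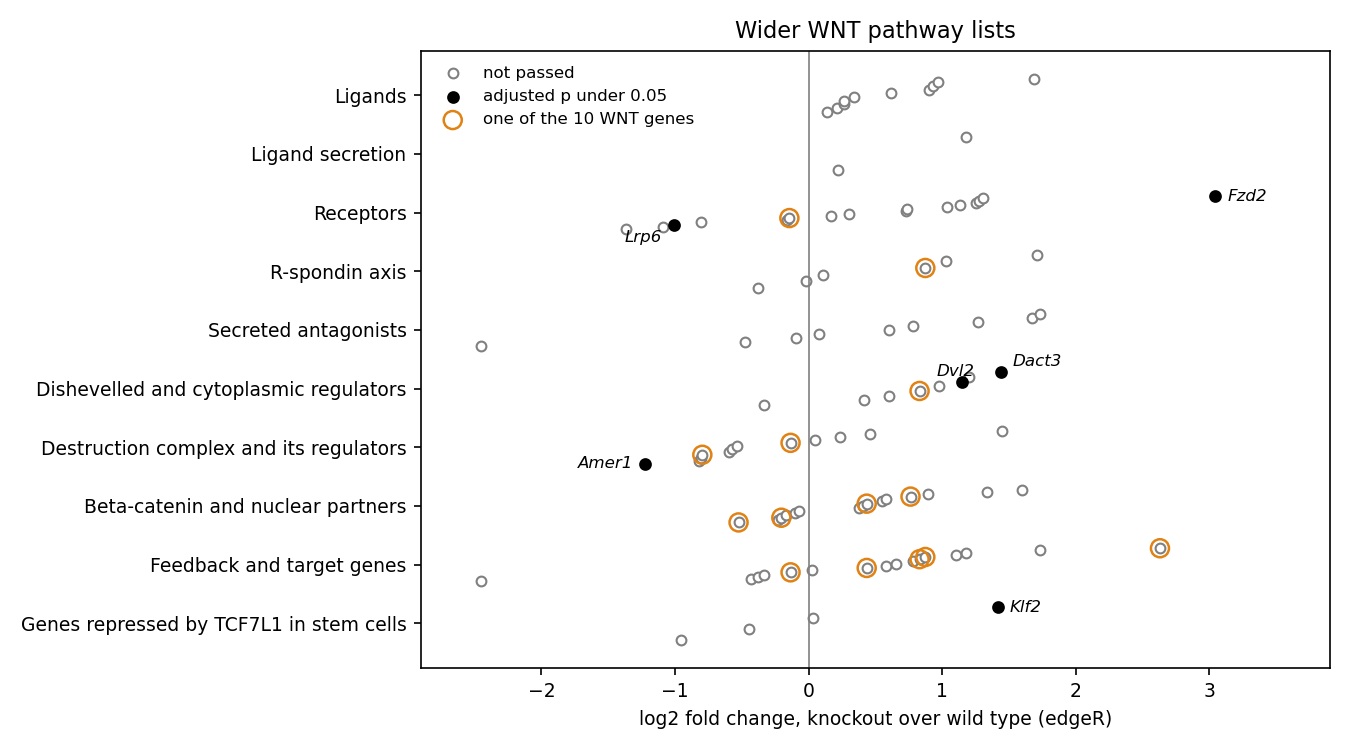
Log2 fold change of knockout over wild type (horizontal axis) for the tested genes of the 10 WNT lists, a row for each list, with genes at an edgeR adjusted p under 0.05 filled and named and the 10 WNT genes ringed in orange. No ringed point is filled, and Fzd2 lies farthest to the right at 3.04.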

How the data were processed

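Raw counts per Ensembl gene were deposited for each of the 4 libraries (reverse-stranded TruSeq, polyA RNA), with no normalization. Per the submitters' processing notes the tools were STAR 2.4.2a and featureCounts 1.4.5-p1 with genome mm10; which annotation was counted, and how overlaps were handled, is not given in the sources used here. Symbols matched 97.3% of identifiers, and lengths, GC content and 3′ UTRs came from GENCODE M21 of the same build. Counts were tested with edgeR 4.0.16 (R 4.3.3, TMM scaling, filterByExpr with a minimum count of 10 and minimum total of 15, quasi-likelihood test of group alone, Benjamini-Hochberg over all genes tested, threshold 0.05). This step was tested on simulated data with equal spread in both groups. The spread of these libraries is unequal, so that run does not check the calls made here. Alternatives were other scalings, no filter, DESeq2 1.42.0, each library left out, the knockouts summed, the replicate number as a block, and GC and length trends removed as lowess offsets (span 0.3). A single count was worth 0.0225 (KO2) to 0.0324 (KO1) TMM-scaled CPM. FPKM used the union of exons. The members and lists were chosen with earlier results of these data known. From each wider list the text names every member past the threshold, up to 3 in each direction, or else the one with the smallest p. Plots used Python 3.11.15 with matplotlib 3.10.9.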

Additional observations from a re-analysis of the deposited data

How the results depend on the processing

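Of all genes, 927 passed in edgeR with TMM scaling, 0 with upper-quartile scaling, with library totals alone, with the knockout libraries summed as 1 sample or with GC and length trends removed (6267, 6116, 1888 and 4271 at an unadjusted p under 0.05), 2663 without the filter and 3757 with DESeq2; leaving out 1 library gave 0 to 13659. Of the 88 wider WNT genes 6 passed, 0 under those same 4 settings, 18 without the filter and 23 with DESeq2, and 0 to 80 with 1 library left out. Of the 10 genes none passed, except 2 without the filter (Apc at -0.79 and Sp5 at 2.63), 1 with DESeq2 (Apc at -0.82) and 0 to 10 with 1 library left out. Leaving out 1 library moved the log2 fold change of Axin2 from -0.69 to 0.82, Apc from -0.91 to -0.66, Ctnnb1 from -0.23 to -0.17, Tcf7 from 0.24 to 0.66, Tcf7l1 from 0.51 to 1.07, Tcf7l2 from -0.80 to -0.13, Sp5 from 2.17 to 3.29, Fzd7 from -0.42 to 0.21, Rnf43 from 0.67 to 1.11 and Nkd1 from 0.64 to 1.06. Among the genes whose change is given above, direction turned with trends removed for Tcf7l1 (-0.32), Dact3 (-0.45), Klf2 (-0.0143), Wnt5b (-0.24) and Esrrb (-0.46). Other genes of the wider lists turned as well, such as Fzd9 (1.13 to -0.32) and Gsk3a (0.46 to -0.74). Of the 88 wider genes 59 were fitted above 0 in the main fit and 40 with trends removed. Fzd7 turned (0.0142) with library totals alone, which move the median of all genes to 0.13. The causes were not tested.

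The replicate numbers are not stated to pair libraries. Over genes, the log2 difference between KO1 and KO2 correlated at 0.0461 with the log2 difference between WT1 and WT2. With the replicate block 1929 genes, 15 wider WNT genes and none of the 10 passed, and Axin2 turned to 0.0503. With the longest transcript as length, mean levels over the 4 libraries were 268 FPKM for Ctnnb1, 2.02 for Tcf7l2 and 0.309 for Rnf43, against 187, 0.854 and 0.203. Depth limits Sp5, at 2 to 22 counts per library.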
